A study of Mus musculus with 11 samples.

Results

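Periostin and 9 other genes of the non-collagen matrix were followed in 3T3-L1, an established line of mouse fibroblasts used as a model of preadipocytes, since hormones can turn it into fat cells. The 10 genes were Postn, Fn1, Sparc, Thbs1, Thbs2, Tnc, Lox, Timp1, Timp3 and Dcn, taken as named among the 12565 genes tested, and each was read from its brightest probe set (a group of short probes for one transcript) annotated to that symbol alone. They had 23 such probe sets, of which 22 passed the filter on dim values, and all 10 genes were above background on all 11 arrays. The cells had been given trans-10,cis-12 conjugated linoleic acid (CLA) or, as the control, linoleic acid (LA), for 4, 8 or 12 h, with no dose in the labels. There was 1 LA array at 4 h and 2 arrays in each of the other 5 groups. The labels call the replicates biological without naming separate cultures, so p-values measure the spread between these arrays, which may be technical.

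The matrix around a fibroblast holds structural proteins such as fibronectin together with matricellular proteins, which bind matrix and cell surface receptors and tune adhesion and growth factor activity more than they bear load. Lysyl oxidase crosslinks collagen and elastin, tissue inhibitors of metalloproteinases hold back matrix breakdown, and small proteoglycans such as decorin organise collagen fibrils. Preadipocytes make a fibronectin-rich matrix that is remodelled as they become adipocytes, and several of these genes are known targets of transforming growth factor beta (TGF-beta).

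Of 10 genes marking preadipocytes and fibroblasts, 9 were above background on all 11 arrays, and Cd34 was at background on all of them. Of 6 adipocyte markers with a probe set, Fabp4 (174 to 473) and Lipe (21.3 to 45.2) were above background on all 11 arrays, Adipoq on 1, and Lep, Cidec and Retn on none. Summed endothelial markers lay between −13.9 and 19.0, and summed macrophage markers between 581 and 1745, the highest on the LA array of 4 h. That peak came from Csf1r alone, at 1171 there against 109 to 426 on the other arrays. Median deposited intensities ran from 10.6 to 20.1 per array, and replicates of a group correlated at r = 0.968 to 0.976 across genes. Intensities below are quantile normalised over the arrays, in arbitrary units, and log2 differences are given with standard errors. A gene is said to have risen or fallen where limma's Benjamini-Hochberg adjusted p, over all 12565 genes, was under 0.05.

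The RefSeq promoter table (GRCm38.p6) held a window from 250 bases before to 50 bases after the transcription start for 6 of the 10 genes. Printed are 1 window of Postn, the gene that differed most between the fatty acids, and 1 each of Tnc, Timp1 and Timp3, which rose together with time. Capitals mark matches on either strand to 3 motifs. The TATA box was searched as TATAAA. The motif of Sp1 was taken as GGGCGG, and that of the TEAD factors as GGAATG.
Postn, chr3:54360857-54361156, plus strand: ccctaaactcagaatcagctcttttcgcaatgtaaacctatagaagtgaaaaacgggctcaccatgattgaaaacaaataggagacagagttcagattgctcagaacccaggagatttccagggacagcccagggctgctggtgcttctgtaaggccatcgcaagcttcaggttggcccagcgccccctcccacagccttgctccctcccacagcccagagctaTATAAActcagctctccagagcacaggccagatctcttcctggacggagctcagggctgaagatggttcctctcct
Tnc, chr4:64046887-64047186, minus strand: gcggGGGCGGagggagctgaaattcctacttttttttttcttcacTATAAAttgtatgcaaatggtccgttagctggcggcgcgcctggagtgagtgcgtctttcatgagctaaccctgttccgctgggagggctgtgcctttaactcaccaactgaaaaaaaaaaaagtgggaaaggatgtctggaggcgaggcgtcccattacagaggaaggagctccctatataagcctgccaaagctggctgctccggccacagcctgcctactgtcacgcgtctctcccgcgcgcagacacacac
Timp1, chrX:20869916-20870215, plus strand: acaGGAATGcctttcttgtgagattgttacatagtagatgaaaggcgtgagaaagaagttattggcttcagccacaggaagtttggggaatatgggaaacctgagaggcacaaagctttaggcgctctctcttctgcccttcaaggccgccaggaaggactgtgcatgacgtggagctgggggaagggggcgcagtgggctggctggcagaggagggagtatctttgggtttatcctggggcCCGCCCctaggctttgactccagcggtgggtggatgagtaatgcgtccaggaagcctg
Timp3, chr10:86300162-86300461, plus strand: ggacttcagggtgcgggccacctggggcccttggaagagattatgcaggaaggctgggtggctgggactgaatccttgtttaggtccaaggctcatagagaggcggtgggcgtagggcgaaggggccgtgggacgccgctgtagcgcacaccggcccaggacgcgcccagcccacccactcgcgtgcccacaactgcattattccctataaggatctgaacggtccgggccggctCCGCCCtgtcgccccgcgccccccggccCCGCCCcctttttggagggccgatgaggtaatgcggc
In the printed Postn window the exact letters TATAAA lay at bases −26 to −21 from the start, and in the printed Tnc window at −205 to −200. The Tnc window also holds tatataag nearer the start, which the exact search does not count. In another Tnc window TATAAA lay at −126 to −121, and another Postn window held no match. Timp3 held GGGCGG on the minus strand at −15 to −10 and again at 13 to 18, and Timp1 held it on the minus strand at −8 to −3, with GGAATG at −247 to −242. Among all 32851 windows in the table, 13.6% held TATAAA, 35.7% GGGCGG and 14.7% GGAATG. AP-1 (TGANTCA, in 7.81% of all windows) and the CArG box of SRF (in 1.63%) had no match in the windows of these 6 genes, which says only that those letters were absent there.

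Periostin, a matricellular protein that binds integrins and collagen, was the member with the largest difference between the fatty acids. Its transcript was higher with CLA on every array of every time, and it fell in LA cells between 8 and 12 h. Normalised intensity of Postn in LA was 2949 at 4 h, 3226 and 3159 at 8 h, and 2082 and 1835 at 12 h. In CLA it was 3909 and 3938 at 4 h, 5542 and 3272 at 8 h, and 5132 and 3385 at 12 h. Both LA arrays of 12 h were the lowest of the 11, and replicate 1 of CLA was far above replicate 2 at 8 and 12 h. The lower CLA array of 8 h, at 3272, lay only just above the higher LA array of that time, at 3226.

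Averaged over the 3 times, Postn was 1.56-fold higher with CLA (log2 difference 0.64 ± 0.13, limma adjusted p = 0.0252). By time the log2 difference was 0.41 ± 0.26 at 4 h (adjusted p = 0.744) and 0.42 ± 0.22 at 8 h (adjusted p = 0.987), neither past the threshold. At 12 h it was 1.09 ± 0.22, a 2.13-fold difference (adjusted p = 0.00725). In the authors' deposited table for 12 h, read as CLA over LA, the ratio of Postn was 2.18. With 12 h left out of the mean but its arrays kept in the fit, the averaged difference was 0.41 and did not pass (adjusted p = 0.545). The averaged call thus rested on 12 h. The 12 h call was lost without LA replicate 2 of that time (1.001, adjusted p = 0.068) or CLA replicate 1 (0.79, adjusted p = 0.0537), and the averaged call without any of 5 single arrays (either of CLA at 4 h, either of LA at 8 h or LA replicate 2 of 12 h), with adjusted p up to 0.0812. Among all genes, 1.61% were higher with CLA on every array at all 3 times, and Postn was the 1 member that did so.

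Ordered by group mean, Postn ran from 1959 ± 175 (SD, n = 2) in LA at 12 h through 2949 (LA, 4 h) and 3192 ± 46.7 (LA, 8 h) to 3924 ± 20.1 in CLA at 4 h, 4258 ± 1236 in CLA at 12 h and 4407 ± 1606 in CLA at 8 h. The 3 CLA groups did not differ beyond their spread, and neither did LA at 4 and 8 h (log2 difference 0.11 ± 0.26, adjusted p = 0.840). From 8 to 12 h Postn fell by 0.71 ± 0.22 on the log2 scale in LA (adjusted p = 0.0382), whereas in CLA the change was −0.031 ± 0.215 (adjusted p = 0.981). The test of whether those changes differ gave 0.68 ± 0.30 (adjusted p = 0.330).

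**Figure D1:**
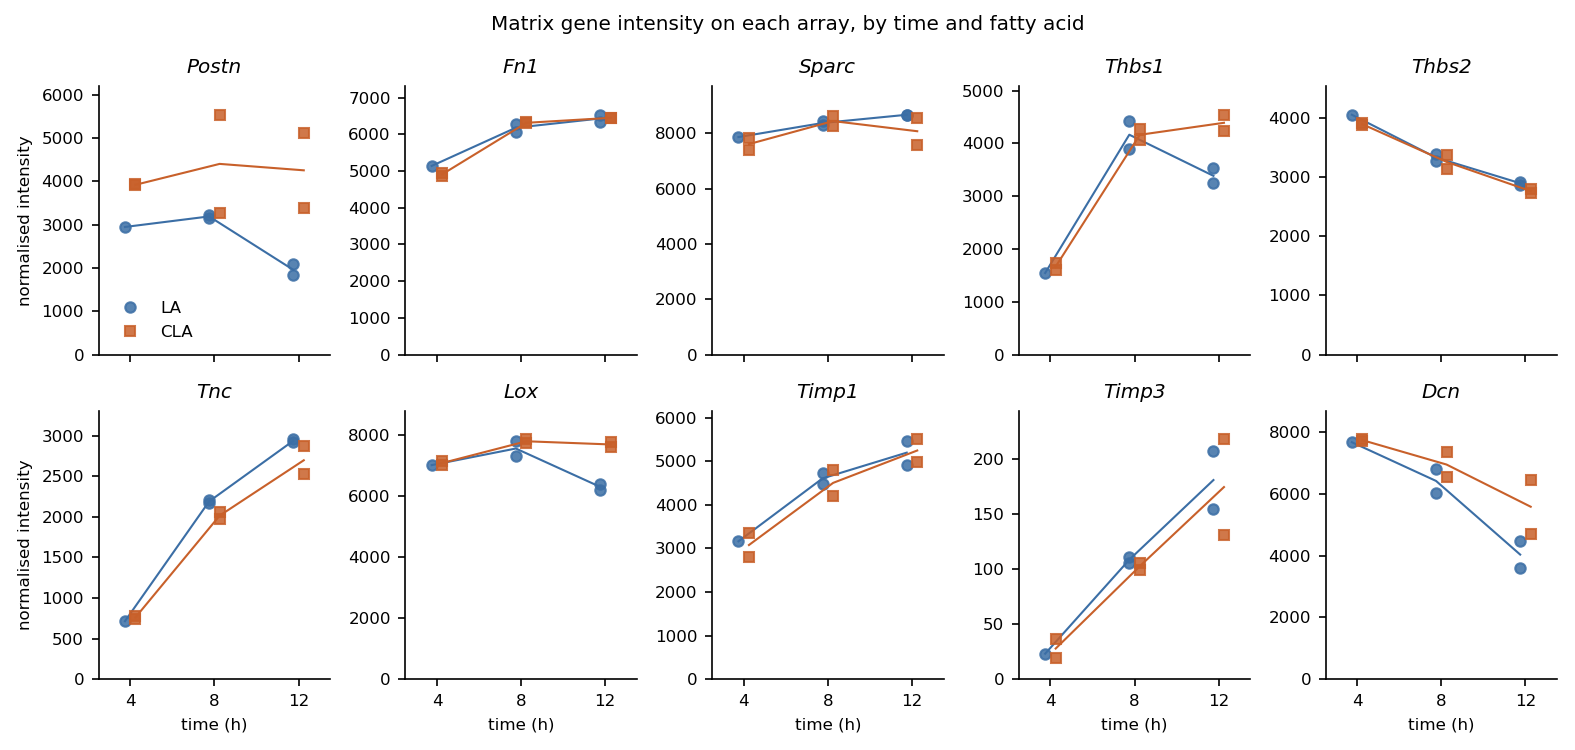
Quantile-normalised intensity (linear axis from 0, arbitrary units) of each gene on each of the 11 arrays against time, with circles for LA, squares for CLA and lines through group means; scales differ between panels. Postn is higher in CLA at all 3 times, Lox, Thbs1 and Dcn part from LA at 12 h, and Tnc, Timp1 and Timp3 rise with time in both fatty acids.

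At 12 h, 4 of the 10 members were higher with CLA and none was lower, where 18.4% of all genes passed the test and 9.32% passed it as higher. Besides Postn these were Lox, Thbs1 and Dcn. In all 4, both CLA arrays of 12 h lay above both LA arrays, as they did for 20.3% of all genes.

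Lox, which oxidises lysines in collagen and elastin so that they crosslink, had intensities of 6408 and 6216 in LA and 7773 and 7629 in CLA at 12 h. At 8 h it had been 7317 and 7818 in LA and 7741 and 7870 in CLA, and at 4 h 7023 in LA and 7159 and 7023 in CLA. The groups thus overlapped or touched at 4 and 8 h and stood apart at 12 h, where the LA arrays were the lowest of the 11. The 12 h difference was 1.22-fold (log2 difference 0.29 ± 0.05, adjusted p = 0.00247). Where each array was instead scaled to the same median the difference turned to −0.092 (adjusted p = 0.752), with a median over all genes of −0.17 under that scaling. With cyclic loess it was 0.23 (adjusted p = 0.0648). Averaged over time, Lox was 1.08-fold higher (0.12 ± 0.03, adjusted p = 0.0389). That call was lost without any single array except the LA array of 4 h and CLA replicate 2 of 8 or 12 h. Without the LA array of 4 h there was no 4 h difference, so the mean was then over 8 and 12 h alone. With an array left out the averaged difference ran from 0.099 to 0.17.

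Thbs1, encoding thrombospondin 1, a matricellular protein that activates latent TGF-beta and signals through Cd47, was at 3523 and 3244 in LA and 4541 and 4237 in CLA at 12 h. The difference was 1.297-fold (log2 difference 0.38 ± 0.08, adjusted p = 0.00864). At 8 h the groups overlapped, at 3899 and 4427 in LA and 4263 and 4060 in CLA, and the log2 difference was 0.0019 ± 0.0766 (adjusted p = 0.998). Averaged over time it was 0.16 ± 0.05 and missed the threshold (adjusted p = 0.0632). The 12 h call was lost without LA replicate 2 (0.32, adjusted p = 0.0782) or CLA replicate 1 (0.33, adjusted p = 0.0575). With the arrays scaled to the same median the difference was 0.08 (adjusted p = 0.763).

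Dcn, encoding decorin, a small proteoglycan that coats collagen fibrils, was at 4475 and 3604 in LA and 6461 and 4721 in CLA at 12 h, a 1.38-fold difference (log2 difference 0.46 ± 0.13, adjusted p = 0.0374). The lower CLA array was only slightly above the higher LA array, and replicates differed widely in both groups. Without CLA replicate 1 of 12 h the difference was 0.23 (adjusted p = 0.240), and without LA replicate 2 it was 0.30 (adjusted p = 0.237). The call was also lost, at the same difference, without either CLA array of 4 h or LA replicate 1 of 8 h (adjusted p = 0.0524, 0.0525 and 0.050005). With the arrays scaled to the same median the difference was 0.16 (adjusted p = 0.585). Averaged over time the difference was 0.20 ± 0.08 (adjusted p = 0.165).

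The other 6 members gave no call between the fatty acids at 12 h on their brightest probe sets. Fn1, the fibronectin gene, had a log2 difference of 0.0042 with a 95% interval from −0.09 to 0.10. A dimmer Fn1 probe set, with a mean intensity of 611, was higher with CLA by 0.74 ± 0.21 (adjusted p = 0.0368), so its probe sets disagreed. Timp1, a metalloproteinase inhibitor, had a difference of 0.014 (−0.20 to 0.22). Tnc, encoding tenascin C, a matricellular protein of remodelling tissue, was at −0.13 (−0.29 to 0.04). Sparc, a collagen-binding matricellular protein, was at −0.11 (−0.23 to 0.02), and Thbs2, the thrombospondin 2 gene, at −0.07 (−0.19 to 0.05). For Timp3, an inhibitor bound to the matrix and the dimmest member, the interval ran from −0.71 to 0.55, the widest of these 6. The median over the 10 members was 0.0091, against −0.15 over all genes.

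No member passed at 4 h, where 0.294% of all genes did, or at 8 h, where none of the 12565 did in limma and 498 had an unadjusted p under 0.05. Averaged over time 2 members were higher, Postn and Lox, where 7.06% of all genes passed and 4.07% passed as higher. The F test of a CLA effect that changed with time called 0 of 10 members, against 1.1% of all genes. Only Lox (limma adjusted p = 0.0993) and Thbs1 (limma adjusted p = 0.190) had an unadjusted p under 0.05 there.

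Signs of array and RNA quality also differed between the fatty acids, and not only at 12 h. The GAPDH 3' to 5' ratio at 4 h was 1.08 in LA against 0.888 and 0.928 in CLA. At 8 h that ratio was 1.01 and 1.02 in LA against 0.893 and 1.01 in CLA. The median deposited intensity of 4 h ran the other way from 12 h, at 18.9 in LA against 14.4 and 15.1 in CLA. At 8 h it was mixed, at 13.9 and 14.3 in LA and 20.1 and 12.8 in CLA. At 12 h the GAPDH 3' to 5' ratio was 0.983 and 1.18 on the LA arrays and 0.884 and 0.954 on the CLA arrays, and the median deposited intensity was 11.6 and 10.6 in LA against 14.7 and 15.8 in CLA. With log2 median intensity as a covariate the Postn difference of 12 h was 0.64 (adjusted p = 0.290) and none of the 4 genes passed. With median scaling, cyclic loess or no scaling between arrays the Postn difference ran from 0.87 to 1.33 and passed each time. Their part in the results was otherwise not tested. In bulk RNA, fewer cells of a type and less RNA per cell cannot be told apart.

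**Figure D2:**
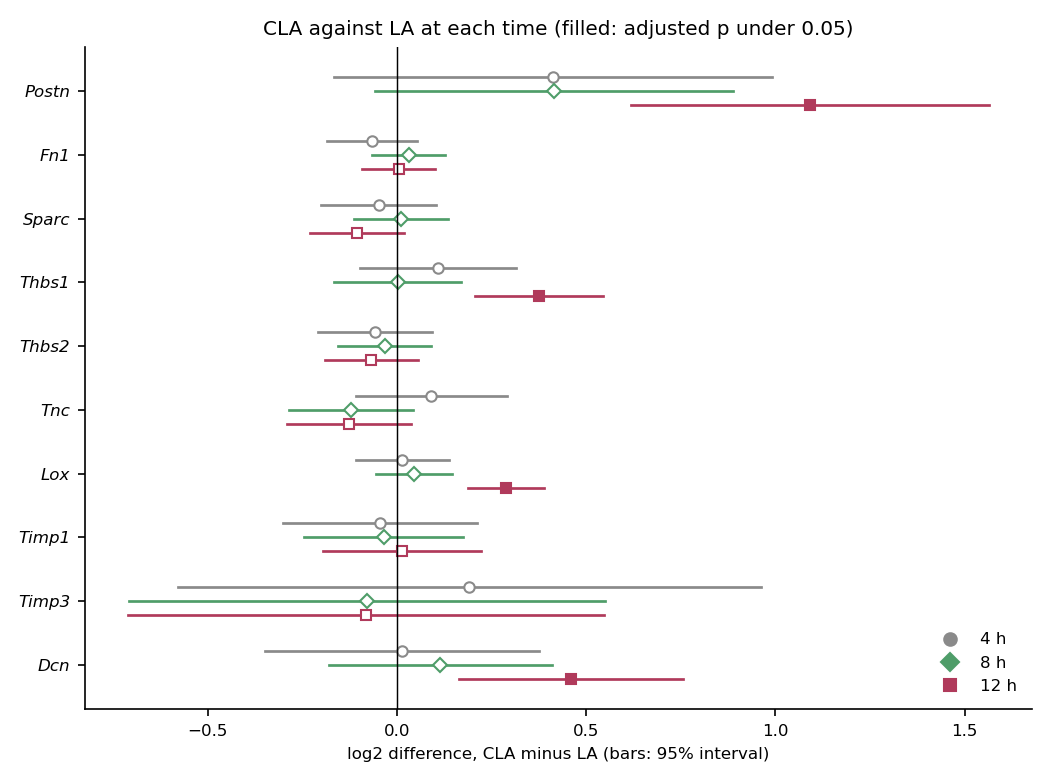
Log2 difference CLA minus LA for each gene at 4 h (circles), 8 h (diamonds) and 12 h (squares) with 95% intervals from the limma fit; filled symbols have an adjusted p under 0.05. Only the 12 h values of Postn, Thbs1, Lox and Dcn are filled, and the Postn intervals and those of Timp3 are the widest.

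More of these genes passed the tests of time than those of fatty acid. Between 4 and 8 h, 5 members rose and 1 fell in LA cells, and the same 6 genes moved the same way in CLA cells: Tnc, Thbs1, Timp3, Timp1 and Fn1 rose and Thbs2 fell. In LA 11.9% of all genes passed (7.18% higher, 4.67% lower), in CLA 12.7% (7.2% higher, 5.46% lower), and 7.33% passed the same way in both. These comparisons share no arrays. All 10 members had the same sign in both fatty acids, as did 72.3% of all genes.

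Tnc went from 714 on the LA array of 4 h to 2211 and 2169 in LA at 8 h and to 2956 and 2919 at 12 h. In CLA it was 744 and 777, then 2056 and 1973, then 2871 and 2524. No array of a later time overlapped one of an earlier time in either fatty acid. The rise from 4 to 8 h was 3.06-fold in LA (log2 difference 1.61 ± 0.09, adjusted p = 5.44e-06) and 2.64-fold in CLA (1.40 ± 0.07, adjusted p = 2.38e-06). Tnc went on to rise from 8 to 12 h, by 0.42 ± 0.07 in LA (adjusted p = 0.00331) and 0.42 ± 0.07 in CLA (adjusted p = 0.0445).

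Thbs1 was at 1544 in LA and at 1727 and 1605 in CLA at 4 h, below every array of 8 and 12 h. It rose 2.69-fold to 8 h in LA (log2 difference 1.43 ± 0.09, adjusted p = 1.58e-05) and 2.497-fold in CLA (1.32 ± 0.08, adjusted p = 2.64e-06). The inhibitors rose too. Timp3 went from 23.0 in LA to 111 and 106 at 8 h and 155 and 207 at 12 h, and in CLA from 35.9 and 19.5 to 106 and 99.4 and then 131 and 218. Its rise from 4 to 8 h was 4.43-fold in LA (2.15 ± 0.35, adjusted p = 0.0031) and 3.67-fold in CLA (1.88 ± 0.29, adjusted p = 0.00144), the largest of the members on this scale.

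Timp1 was 3164 in LA and 3358 and 2799 in CLA at 4 h, and 4482, 4736, 4208 and 4802 on the LA and CLA arrays of 8 h. It rose 1.46-fold in LA (log2 difference 0.54 ± 0.12, adjusted p = 0.0131) and 1.47-fold in CLA (0.55 ± 0.10, adjusted p = 0.00308). Fn1 rose less, from 5142 in LA and 4960 and 4868 in CLA to between 6080 and 6332 on the 4 arrays of 8 h. The change was 0.27 ± 0.05 in LA (adjusted p = 0.0099) and 0.36 ± 0.04 in CLA (adjusted p = 0.000332). It is small, and all its later arrays lay above all its 4 h arrays.

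From 4 to 8 h Thbs2 ran the other way from Thbs1, its close relative, while from 8 to 12 h both fell in LA. At 4 h its intensity was 4060 in LA and 3920 and 3880 in CLA, after which it lay between 3147 and 3388 at 8 h, and between 2732 and 2924 at 12 h, with no overlap between times. The fall from 4 to 8 h was by 0.28 ± 0.07 on the log2 scale in LA (adjusted p = 0.0221) and by 0.26 ± 0.06 in CLA (adjusted p = 0.0108). With the arrays scaled to the same median the LA value turned to 0.10 (adjusted p = 0.789), with all genes at a median of 0.24.

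The summed markers of smooth muscle and myofibroblasts moved in step with these rises, from 5193 to 5739 over the 4 h arrays to 9018 to 9558 at 8 h and 10603 to 11147 at 12 h. Of its 6 genes Acta2, Tagln and Smtn were above background on every array, and Cnn1 and Myh11, which mark contractile smooth muscle, were at background on all. Summed adipocyte markers fell over the same times, from between 379 and 468 to between 145 and 197, and Fabp4 carried that fall. Fabp4 was at 386 in LA and 457 and 473 in CLA at 4 h, and between 174 and 219 at 12 h. Lipe went from 27.3 at 4 h to 30.9 and 32.3 at 12 h in LA, and from 42.4 and 45.2 to 21.3 and 32.2 in CLA. Whether these bear on the matrix genes was not tested. Without replicate 2 of LA at 8 h the LA rise from 4 to 8 h no longer passed for Fn1 (adjusted p = 0.0724) or Timp1 (0.0723). The Fn1 rise also failed in LA on the values as deposited (0.23, adjusted p = 0.294) and with cyclic loess (0.22, adjusted p = 0.145) or no intensity trend (adjusted p = 0.143), and in CLA with median scaling (0.26, adjusted p = 0.414) or cyclic loess (0.24, adjusted p = 0.0565). The fall of Thbs2 was lost without either LA array of 8 h (adjusted p = 0.126 and 0.0756), and in CLA without either CLA array of 4 h (0.0908 and 0.0683). On the values as deposited the CLA change of Thbs2 was −0.14 (adjusted p = 0.539). The rises of Tnc, Thbs1 and Timp3 passed whichever array was left out, except that the LA array of 4 h could not be.

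From 8 to 12 h, in LA cells 1 member rose (Tnc) and 5 fell (Postn, Dcn, Thbs1, Lox and Thbs2), where 22% of all genes passed, 10.8% higher and 11.2% lower. In CLA cells 1 of 10 passed, again Tnc, where 0.398% of all genes passed and 0.143% passed as higher. No member passed the test of whether its change differed between the fatty acids, which 1.15% of all genes passed. The LA falls and the CLA excess at 12 h use the same LA arrays and are not independent.

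Dcn fell by 0.68 ± 0.13 on the log2 scale in LA (adjusted p = 0.00607), from 6030 and 6827 at 8 h to 4475 and 3604. It had been at 7684 at 4 h. In CLA it stood at 7779 and 7725 at 4 h, 7371 and 6549 at 8 h and 6461 and 4721 at 12 h, so the order of the times was the same, and the change from 8 to 12 h was −0.33 ± 0.13 (adjusted p = 0.427). Thbs1 fell by 0.30 ± 0.08 in LA (adjusted p = 0.0198), against 0.08 ± 0.08 in CLA (adjusted p = 0.816). Lox fell by 0.26 ± 0.05 in LA (adjusted p = 0.00322), against −0.019 ± 0.046 in CLA (adjusted p = 0.929).

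These falls rest on few arrays and, for several, on the scaling. That of Postn was lost without any 1 of the 4 LA arrays of 8 and 12 h, or of the 2 CLA arrays of 4 h, with adjusted p up to 0.176. The falls of Dcn (0.0619 and 0.0607) and Thbs1 (0.184 and 0.128) were lost without replicate 2 of LA at 8 h or at 12 h, and that of Lox without replicate 2 at 8 h (0.0512). The fall of Thbs2 was lost without any 1 of the 4 LA arrays, with adjusted p up to 0.174, and the CLA rise of Tnc without any single array except the LA array of 4 h and CLA replicate 2 of 12 h, with adjusted p up to 0.155. With the arrays scaled to the same median, which put the median of all genes at 0.15, the LA change was −0.087 for Lox (adjusted p = 0.760), −0.13 for Thbs1 (0.591), −0.038 for Thbs2 (0.897) and −0.49 for Dcn (0.0792), and none of these passed. On the values as deposited the LA rise of Tnc was 0.24 (adjusted p = 0.354).

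The tests of the difference between the LA and CLA changes gave 0.24 ± 0.06 for Lox (adjusted p = 0.105), 0.37 ± 0.11 for Thbs1 (adjusted p = 0.130) and 0.34 ± 0.19 for Dcn (adjusted p = 0.417). Thbs2 moved alike in both, by −0.20 ± 0.06 in LA (adjusted p = 0.027) and −0.24 ± 0.06 in CLA (adjusted p = 0.132), although only the LA change passed. Over all 3 times, the F test called 9 members in LA, all except Sparc, where 37.2% of all genes passed; that of Postn was lost without any 1 of the same 6 single arrays as its fall, with adjusted p up to 0.237. In CLA it called 6, namely Fn1, Thbs1, Thbs2, Tnc, Timp1 and Timp3, where 18.6% passed. Sparc was not called on its brightest probe set, with a mean of 8206. On another, with a mean of 7215, it passed the F test in LA (adjusted p = 0.00667) and in CLA (adjusted p = 0.0324).

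**Figure D3:**
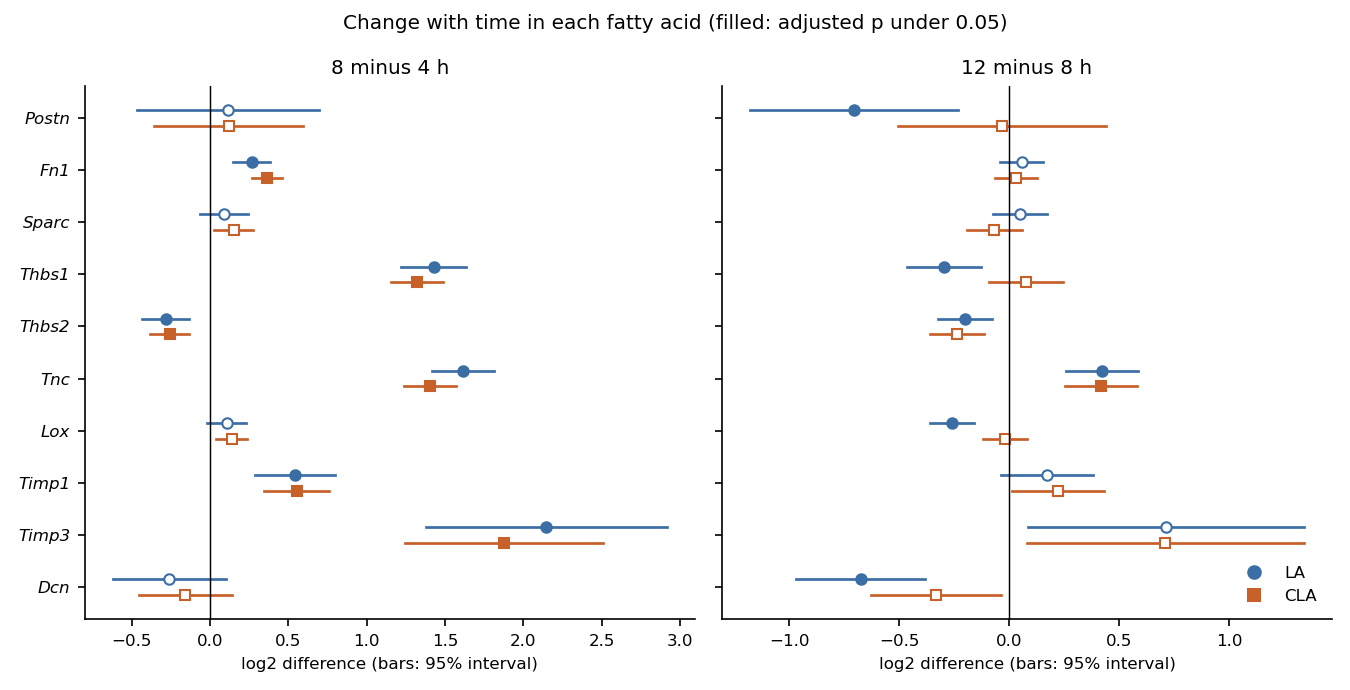
Log2 change from 4 to 8 h (left) and from 8 to 12 h (right) for each gene in LA (circles) and CLA (squares), with 95% intervals; filled symbols have an adjusted p under 0.05. On the left the intervals of both fatty acids overlap for every gene, while on the right Postn, Thbs1, Thbs2, Lox and Dcn are filled and below 0 in LA and open in CLA, and no test of the difference between the fatty acids passed.

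Across the 11 arrays, Fn1, Tnc, Timp1, Timp3 and Thbs1 followed each other with Pearson r between 0.88 and 0.97, and Thbs2 ran against them at −0.94 to −0.81. Postn stood outside that group, with r = 0.77 to Lox, 0.73 to Dcn and −0.27 to 0.15 to the 7 others. Of 12564 other genes, those most like Postn were Dram2 (r = 0.98), Scfd1 (0.97), Cacna2d1 (0.96), Cav2 (0.96) and 6820431F20Rik (0.96). Mean intensity of Dram2 was 208, 225 and 169 in LA at 4, 8 and 12 h and 268, 266 and 258 in CLA. These are descriptions over arrays that share times, treatments and scaling.

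Second probe sets gave a check within a gene. For Lox a probe set almost as bright also fell from 8 to 12 h in LA, by 0.69 ± 0.12 (adjusted p = 0.00359), against 0.26 for the brightest. At 12 h it was higher with CLA by 0.81 ± 0.12 (adjusted p = 0.00202), against 0.29, so the size for Lox depends on the probe set. A dimmer Lox probe set, with a mean of 364, had the same signs but passed neither test. It was at −0.19 ± 0.15 from 8 to 12 h in LA (adjusted p = 0.372) and 0.44 ± 0.15 for CLA minus LA at 12 h (adjusted p = 0.0607). That of Thbs1 rose from 4 to 8 h by 1.69 ± 0.30 in LA (adjusted p = 0.00487) and 1.67 ± 0.25 in CLA (adjusted p = 0.00117). In 2 further comparisons it had the sign of the brightest probe set but missed the threshold, at 0.74 ± 0.25 for CLA minus LA at 12 h (adjusted p = 0.0561) and −0.60 ± 0.25 from 8 to 12 h in LA (adjusted p = 0.102). The 3 dimmer probe sets of Timp3 were higher at 8 than at 4 h in LA by between 0.95 and 1.71, with adjusted p from 0.0657 to 0.224, so none passed there. In CLA the Timp3 probe set with a mean of 64.0 passed, at 1.60 ± 0.30 (adjusted p = 0.00534). Those with means of 22.4 and 19.3 missed, at 2.08 and 0.30 (adjusted p = 0.0550 and 0.693). Both other probe sets of Thbs2 were lower at 8 than at 4 h in LA but missed the threshold (−0.15 and −0.32, adjusted p = 0.339 and 0.0606). In CLA both passed (−0.31 and −0.40, adjusted p = 0.0191 and 0.00774). The dimmer Tnc probe set missed for the rise from 4 to 8 h, at 0.69 in LA (adjusted p = 0.407) and 0.76 in CLA (adjusted p = 0.255).

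For 3 genes the probe sets disagreed. Fn1 was flat from 8 to 12 h in LA on its brightest probe set (0.06 ± 0.04), but another with a mean of 611 had intensities of 605 and 698 at 8 h and 266 and 325 at 12 h, a change of −1.14 ± 0.21 (adjusted p = 0.0046). The Tnc probe set with a mean of 76.9 changed by −1.25 ± 0.39 (adjusted p = 0.0432), against the rise of 0.42 on the brightest. The Sparc probe set with a mean of 19.0 changed by −1.45 ± 0.37 (adjusted p = 0.0183), while the other 2 of Sparc were at 0.05 and 0.10. In all 3 genes the dimmer probe set was lower on both LA arrays of 12 h than on both LA arrays of 8 h, and which transcripts each one reads is not given in the files.

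**Figure D4:**
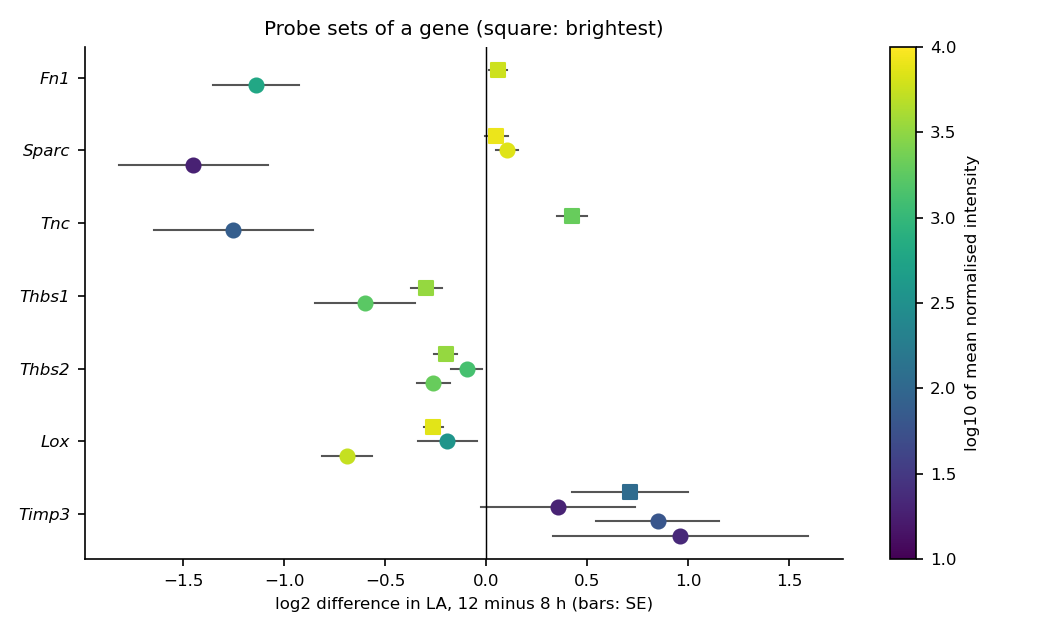
Log2 change from 8 to 12 h in LA for every passing probe set of the 7 genes with several, with standard errors; squares mark the brightest, and colour gives log10 of mean intensity. For Fn1, Sparc and Tnc a dimmer probe set lies far below 0 while the brightest lies at or above 0.

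Around these members, 67 further genes of matrix biology were tested in 5 lists. Averaged over time 3 were higher with CLA and 2 lower, or 7.46% against the 7.06% of all genes. At 12 h 6 were higher and 9 lower, or 22.4% against 18.4%, with a median of −0.10 against −0.15 over all genes. Between 4 and 8 h, 10 rose and 7 fell in LA (25.4% against 11.9%), and 13 rose and 10 fell in CLA (34.3% against 12.7%).

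Of 23 matrix glycoproteins and proteoglycans, Vcan (versican, a large proteoglycan that binds hyaluronan) was higher with CLA on average (log2 difference 0.43 ± 0.09, adjusted p = 0.0226). Like Postn it was low in LA at 12 h, at a mean of 1018 against 2397 in CLA. Hspg2 (perlecan, of basement membranes) was lower on average by −0.34 ± 0.09 (adjusted p = 0.0441) and Tgfbi, a TGF-beta-induced adhesion protein related to periostin, by −0.20 ± 0.05 (adjusted p = 0.0459). Lamb1, a laminin chain, was at −0.19 ± 0.05 (adjusted p = 0.0517).

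None of 6 crosslinking and processing genes passed on average. The lysyl oxidase relatives Loxl3, Loxl1 and Loxl4 were at −0.22, −0.09 and −0.22 (adjusted p = 0.0974, 0.128 and 0.197), and Pcolce, an enhancer of procollagen processing, at −0.11 (adjusted p = 0.0735), so none had the sign of Lox. None of 13 proteases and inhibitors passed either: Mmp2, a gelatinase, was at −0.15 (adjusted p = 0.0746) and Plat, tissue plasminogen activator, at −0.17 (adjusted p = 0.0817). Adamts1, an aggrecan- and versican-cleaving protease, was at 0.12 (adjusted p = 0.156), and Mmp9, another gelatinase, at −0.18 (adjusted p = 0.171).

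Of 10 matrix receptors, Itgb1, the integrin beta 1 chain that pairs with most matrix-binding alpha chains, was higher on average (0.47 ± 0.09, adjusted p = 0.0207), and at 12 h by 0.82 ± 0.14 (adjusted p = 0.00408). Cd47, a thrombospondin receptor, was at 0.16 (adjusted p = 0.0764), Itgav, the alpha chain of vitronectin receptors, at 0.10 (adjusted p = 0.133) and Sdc1, syndecan 1, at −0.14 (adjusted p = 0.109). Of 15 TGF-beta pathway genes, Tgfbr1, the type I receptor, was higher on average (0.35 ± 0.09, adjusted p = 0.0405). Its intensity at 4, 8 and 12 h was 1901 (1 array), 1155 and 435 in LA (the last 2 being means of 2 arrays). In CLA the means were 1898.5, 1209 and 874, so it was lower at each later time in both, and the fatty acids stood far apart only at 12 h. Tgfbr2, the type II receptor, was at −0.14 (adjusted p = 0.136), Smad3, which carries the signal to the nucleus, at −0.11 (adjusted p = 0.271) and Ltbp3, which binds latent TGF-beta, at −0.07 (adjusted p = 0.273).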

How the data were processed

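Total RNA (Trizol) was labelled with biotin as cRNA for 1-colour Affymetrix arrays, per the labels' protocols. The deposited value table holds a linear intensity per probe set, made by the authors with software not given in the sources used here; its medians differ between arrays. Per the file headers, the authors' tables from Rosetta Resolver hold, per time, a ratio of combined arrays, its log10 and a p-value, with the direction of the ratio unnamed. It was read as CLA over LA because its log correlated with CLA minus LA (r = 0.650, 0.669 and 0.812 at 4, 8 and 12 h). The 6 columns of combined intensities in those tables were not used.

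Intensities were quantile normalised, values below 0 set to 0, and log2(value + 1.84) taken, the offset being the 25th percentile, so that changes of dim genes are understated. Of 45101 probe sets, 64 controls were left out; 34945 had 1 gene symbol in the platform annotation. The filter kept probe sets whose mean exceeded 7.59, the 40th percentile of means, and the brightest stood for a gene. Background was 8.89, the 95th percentile of 27 unspiked bacterial controls. limma 3.58.1 (R 4.3.3) fitted 1 mean per group (6 groups, 5 residual degrees of freedom) with an intensity trend, and p-values were adjusted by Benjamini-Hochberg over all genes; the 1 LA array of 4 h borrows its spread from the other groups. SDs are over arrays. The script was tested on simulated data. The number of arrays limits the precision. The members, gene lists and tests were chosen with earlier results of these data known. Named were all members, the 5 genes most correlated with Postn, and up to 4 genes per list, called ones first and then those with the smallest averaged p. A further LA array of 4 h, implied by the design text, was not analysed here. Alternatives covered scaling, offset, filter, probe sets, spread, blocks, a covariate and each array left out.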

Additional observations from a re-analysis of the deposited data

How the results depend on the processing

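Of 3199 recomputed values of single members, 2776 kept their direction and side of the threshold and 181 lost a call. A further 27 gained one, 12 turned a direction where there was a call, and 203 changed sign without a call. Values that had no call at the start and gained none count among those kept, so the total is not a measure of how firm the calls are. No member passed at 4 h, at 8 h or in the F test of a CLA effect that changed with time under any alternative. In the separate test of whether the changes from 8 to 12 h differ, Postn passed under 1 of 23 alternatives. Averaged over time, 2 members passed; 1 did with arrays scaled to the same median, with cyclic loess or with the median-intensity covariate, 0 with values as deposited, no filter, no intensity trend or no 12 h arrays in the mean, and 0 to 3 with an array left out. At 12 h, 4 passed; 1 did with median scaling or no filter, 2 with cyclic loess, 0 with no trend or the covariate, and 1 to 4 with an array left out. Time within LA called 9, and 5 with the covariate. For Postn at 12 h the adjusted p was 0.0758 without a filter, 0.0611 without a trend, 0.068 without LA replicate 2 (log2 difference 1.001) and 0.0537 without CLA replicate 1 (0.79). The counts of all genes passing moved more, from 887 averaged to between 1 and 2510, and from 2317 at 12 h to between 157 and 3228.

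Median scaling turned Lox to −0.020 averaged and −0.092 at 12 h, and Thbs2 to 0.10 from 4 to 8 h in LA. Using other probe sets, or their mean, turned the LA change from 8 to 12 h in Fn1 to −1.14 or −0.54, in Sparc to −1.45 or −0.43 and in Tnc to −1.25 or −0.41. The other Fn1 probe set gave −0.18 from 4 to 8 h in LA and that of Tnc −0.41 from 8 to 12 h in CLA, and the mean of the Sparc probe sets 0.28 for CLA minus LA at 12 h. The cause was not tested.

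The labels number the replicates alike in each group, but deviations of same-numbered arrays correlated at only 0.0071 at 8 h and 0.0769 at 12 h, so the numbers were not taken as pairs. With a replicate block within each time 4 members passed in the averaged comparison, against 2. The count of all genes passing that comparison ran from 1 to 2510 over the alternatives, so the higher count is not read as a result about the members. The labels do not say what a number shares.

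Leaving out an array of 12 h also left 1 array in its group, which was assumed to vary like the others. Timp3 and the dim probe sets of Sparc and Tnc lie close to background, which limits their precision.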

Other observations

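Where matrix genes outside the members moved with time, several did so in both fatty acids. From 4 to 8 h Ccn2 (connective tissue growth factor) rose by 1.40 in LA (limma adjusted p = 0.000189) and 1.17 in CLA (adjusted p = 0.000102). Mfap4, a microfibril-associated protein, rose by 1.497 (adjusted p = 0.00444) and 1.54 (adjusted p = 0.000758), and Fbln5 (fibulin 5, of elastic fibres) by 0.95 (adjusted p = 0.000343) and 1.19 (adjusted p = 1.41e-05). The protease genes Adamts1 and Adamts5 rose by 1.24 and 1.304 in LA and 0.89 and 1.61 in CLA, while the collagenase Mmp13 fell by 0.92 in LA and 1.21 in CLA. These genes were chosen after their values were seen, and all passed in both fatty acids.

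At 12 h Vcan was higher with CLA by 1.23 (adjusted p = 0.000697) and Tgfbr1 by 1.001 (adjusted p = 0.00135), while Mmp9 was lower by −0.57 (adjusted p = 0.0125) and Sdc1 by −0.41 (adjusted p = 0.00805).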
